A study of Mus musculus with 4 samples.

Results

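The integrins, chemokine receptors and homing receptors are 41 genes taken by name from the 50600 genes counted in mouse T-helper 17 (Th17) cells, the CD4 T cells named for interleukin 17. They comprise 16 chemokine receptor genes, 11 integrin alpha chains, 5 integrin beta chains, 4 other adhesion ligands or receptors and 5 G protein-coupled receptors that sense lipids or lipid-derived signals. Primary Th17 cells (strain C57BL/6NJ) gave 4 RNA libraries, numbered as biological replicates 1 to 4 of 1 group. No treatment, other cell type or control group was analysed here, so the comparisons are between genes within a library and between libraries. The labels link a differentiation protocol and 4 biosamples with 1 shared donor identifier, give sex as not collected and age as unknown, and name no mutation or transgene. Whether these biosamples were separate animals or cultures is not said. SDs and p-values thus reflect the spread from library to library alone, which may be technical in part. Xist and the Y-linked gene Ddx3y, given below, set replicates 1 and 2 apart from replicates 3 and 4. The 4 libraries were thus not all repeats of 1 source, and the spread over them includes this division. A tag of 2 hours in the file headers does not say what was timed. The assay was titled total RNA-seq, although the linked library protocol was named for poly(A)+ RNA.

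Circulating T cells leave the blood in steps. Selectins on the vessel wall catch glycosylated ligands such as PSGL-1 on the T cell, chemokine receptors then signal through Gi proteins, and integrins switched on from inside the cell hold it firmly to counter-receptors such as ICAM-1. Each integrin is a pair of 1 alpha and 1 beta chain, and a chain reaches the surface only with its partner. Chemokine receptors direct cells to organs or zones: CCR7 to lymph nodes, CXCR5 to B cell follicles, CCR9 to the small intestine and CCR6 to sites that make CCL20. Sphingosine phosphate receptors take cells back out of lymphoid organs. CCR6 is commonly used to mark Th17 cells.

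Total counts were 25847970 to 40652146 fragments per library. Levels are given as transcript abundance (TPM), counts divided by exon length and scaled to a total of 1000000 in each library, so that genes can be compared per length. Values in sets of 4 follow replicates 1 to 4, and means carry the SD over n = 4 libraries. All 6 T cell markers reached a mean of 1 TPM (Trac averaged 3565 ± 251 TPM). All 8 Th17 markers also reached a mean of 1 TPM, at very different levels. Irf4 averaged 1856 ± 292 TPM, the transcription factor gene Batf 684 ± 55.8 TPM and Stat3 599 ± 37.2 TPM. Lower were Il17f (12.4 ± 5.91 TPM), Rora (9.82 ± 2.49 TPM), Il21 (7.79 ± 1.73 TPM) and the signature cytokine gene Il17a (5.65 ± 1.20 TPM). Markers of other cells were scarce: summed levels per library were 7.07 to 18.3 TPM for 10 myeloid genes, 0.392 to 1.88 TPM for 5 B cell genes and 0 TPM for 5 platelet and erythroid genes. They were 0.623 to 1.46 TPM for 4 NK cell genes, 0 to 0.539 TPM for 5 mast cell, basophil and eosinophil genes, 2.45 to 2.90 TPM for 2 regulatory T cell genes and 7.31 to 10.1 TPM for 6 stromal and epithelial genes, of which Epcam averaged 6.71 ± 1.27 TPM. The libraries stood apart in sex-linked genes. Xist was at 0.791, 0.602, 142 and 76.5 TPM and the Y-linked gene Ddx3y at 305, 213, 0.914 and 1.39 TPM, a difference between libraries that the single donor identifier does not show. Across the 41 genes, the Pearson correlation of log2(TPM + 1) between libraries was 0.995 to 0.998; genes are not independent replicates.

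The 41 genes ran from highly expressed to undetected. Of the 41, 11 (at least 1 in each class) averaged 100 TPM or more, 8 averaged 10 to 100 TPM, 8 averaged 1 to 10 TPM and 14 averaged under 1 TPM, of which 5 had no count in any library. Thus 27 of 41 reached 1 TPM, where 45.2% of 21764 protein coding genes did; 19 of 41 reached 10 TPM, where 31.8% of protein coding genes did; 11 of 41 reached 100 TPM, where 7.61% of protein coding genes did; and 5 of 41 had no count, where 36.8% of protein coding genes had none. The highest were Selplg, Itgb2, Ccr7, Itgb7, S1pr1 and Gpr183, with means of 303 to 469 TPM. The median over the 41 means was 6.81 TPM, and over the 30 genes that passed the filter on low counts used below it was 42.0 TPM, against 19.8 TPM over all 11567 genes that passed it. In 17 of the 41 genes, 1% or more of the distinct 31-base words of the transcripts also occur, on either strand, in another gene. This may lower what can be counted. Words shared with a gene on the opposite strand are included, and the loss of fragments was not tested. Where the share is large it is given with the gene. In RNA from whole cultures, fewer cells that express a gene and less of its RNA per cell cannot be told apart, and RNA levels are not surface protein levels.

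**Figure D1:**
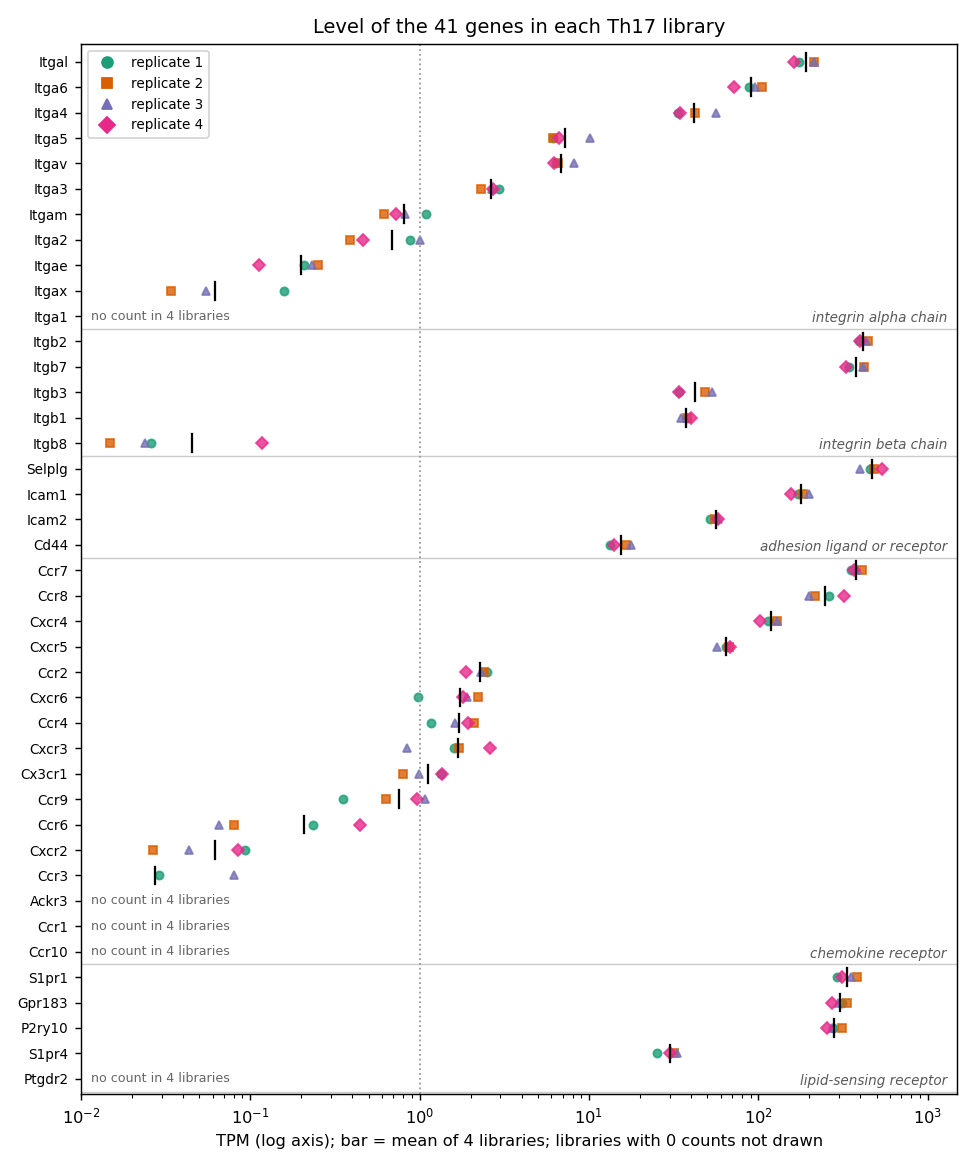
TPM of each of the 41 genes (log axis) in the 4 Th17 libraries (coloured symbols) with the mean of 4 libraries (black bars), grouped by class and sorted by mean; libraries without a count are not drawn. Levels run over 4 orders of magnitude on the axis, and each class holds both genes above 10 TPM and genes under 1 TPM, except the adhesion ligands or receptors, all 4 of which averaged over 10 TPM.

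The 4 adhesion ligands or receptors that are not integrins all averaged over 10 TPM. Selplg, which encodes the selectin ligand PSGL-1, was at 460, 479, 396 and 540 TPM, a mean of 469 ± 59.1 TPM and rank 289 of 21764 protein coding genes, with replicate 3 lowest and replicate 4 highest. Cd44, the hyaluronan receptor and a marker of antigen-experienced T cells, was at 13.3, 16.6, 17.8 and 14.0 TPM. Selplg was thus above Cd44 in 4 of 4 libraries, by 4.84 ± 0.33 in log2(TPM + 1) (exact sign-flip permutation test, p = 0.125, adjusted p = 0.125 over 12 pairs of genes). With 4 libraries 0.125 is the smallest p this two-sided test can give, so none of the 12 pairs could pass 0.05, and each of the pairs below had this same p and adjusted p. Icam1, a ligand of the beta 2 integrins that T cells induce on activation, was at 171, 184, 199.9 and 156 TPM. Icam2, a second ligand of the same integrins, was at 52.0, 55.8, 58.2 and 57.6 TPM. Icam2 lay below Icam1 in 4 of 4 libraries, with a log2(TPM + 1) difference of -1.65 ± 0.16. On the TPM scale Icam2 had the smallest spread between libraries of the 30 genes tested, a coefficient of variation (CV, SD as a share of the mean) of 4.99%. Icam1 shares 14.8% of its 31-base words; Icam4, the next gene after Icam1 on chromosome 9, averaged 0.335 ± 0.233 TPM and shares 94.7% of its words.

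The promoter window of Icam1 is shown because it was the one that held the 9-letter NF-kB-like word GGAAATTCC among the 18 genes of 1 TPM or more that had a window; the other 9 were not searched. The window runs from 250 bases before to 50 bases after the start that RefSeq gives, at chr9:21015690-21015989 on the plus strand (GRCm38.p6, the mm10 sequence), and that start lies 45 bases before the start of the gene model used for counting. Capitals mark the NF-kB-like word, whose first letter is 153 bases before the RefSeq start, a TATAAA word 13 bases after it, and GC boxes (GGGCGG or its reverse complement) 17 bases before and 23 bases after it.
Icam1: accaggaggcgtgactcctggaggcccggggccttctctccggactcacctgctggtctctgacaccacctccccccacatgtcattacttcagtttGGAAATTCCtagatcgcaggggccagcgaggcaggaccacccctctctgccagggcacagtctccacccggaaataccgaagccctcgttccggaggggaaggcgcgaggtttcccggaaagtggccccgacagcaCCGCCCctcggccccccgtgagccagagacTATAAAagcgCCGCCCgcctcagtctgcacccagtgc
The NF-kB-like word occurs on either strand in 0.317% of 32851 RefSeq promoter windows of this length. It was found in 2 of the 30 genes of the set that had a window, Icam1 and Ccr3, which had 29492 and 3 counts. A word match is a description of these letters and not evidence of binding.

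Among the integrin beta chains, those specific to leukocytes led. Itgb2, the shared beta chain of LFA-1, Mac-1 and related integrins, was at 393, 447, 434 and 397 TPM (mean 418 ± 26.8 TPM). Itgb7, the beta chain of the gut-homing integrin alpha 4 beta 7 and of alpha E beta 7, was at 343, 421, 417 and 328 TPM (mean 377 ± 48.6 TPM). On the TPM scale both were higher in replicates 2 and 3 than in replicates 1 and 4; after edgeR's TMM scaling, which fits library factors to the bulk of the genes, this held for Itgb7 and not for Itgb2. Itgb1, the beta chain with the most partners, was at 37.8, 38.0, 34.8 and 40.0 TPM. Itgb7 was above Itgb1 in 4 of 4 libraries, by 3.28 ± 0.25 in log2(TPM + 1). Itgb3, the beta chain of the vitronectin receptor and of the platelet fibrinogen receptor, was at 33.9, 48.2, 53.3 and 34.1 TPM. Replicates 2 and 3 were the high ones for Itgb3. None of the 5 platelet and erythroid markers had a count, while Itga2b, the platelet alpha chain, was at 3.00, 2.19, 4.21 and 1.80 TPM. The part of platelets in the Itgb3 counts was not tested. Itgb8, a partner of alpha V that activates TGF-beta, averaged 0.0454 ± 0.0480 TPM from 17 counts.

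Among the alpha chains only Itgal exceeded 100 TPM. Itgal, the alpha chain of LFA-1, was at 175, 214, 212 and 163 TPM (mean 191 ± 25.7 TPM). Itga6, a laminin receptor chain, was at 88.3, 106, 95.6 and 72.3 TPM. Itga4, the alpha chain of VLA-4 and of alpha 4 beta 7, was at 33.7, 42.4, 56.4 and 34.3 TPM, with replicate 3 highest. These 3 genes were followed after a gap by the fibronectin receptor chain Itga5 (7.26 ± 1.93 TPM), Itgav (6.81 ± 0.90 TPM), the alpha V chain, and the laminin receptor chain Itga3 (2.65 ± 0.25 TPM). Itgam (Mac-1), Itga2 (a collagen receptor chain), Itgae (CD103, which holds T cells to epithelial E-cadherin) and Itgax (CD11c) averaged 0.813, 0.683, 0.200 and 0.0619 TPM from 155, 106, 36 and 12 counts over the 4 libraries. Itga1, which is also a collagen receptor chain, had no count, which allows at most 0.0410 to 0.0662 TPM per library (3 counts, counting error only).

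Itgal was above Itgam in 4 of 4 libraries, by 6.72 ± 0.30 in log2(TPM + 1), and above Itga4 in 4 of 4, by 2.19 ± 0.21. Itga4 was above Itgae in 4 of 4, by 5.12 ± 0.30. The level of Itgam is uncertain: 68.7% of its exon bases overlap the same-strand model Gm49368, and fragments from such bases were not counted. Divided by its unshared bases only, an alternative chosen after seeing the data, Itgam averaged 2.60 TPM. Itgam, Itgax and Itgad lie side by side on chromosome 7 (mm10, Itgam from 128062640 to 128118491), and Itgal lies on the same chromosome from 127296260 to 127335138. The 10 myeloid markers, whose cells carry Itgam and Itgax, had 2 members at 1 TPM or more, Cd68 (10.4 ± 5.33 TPM) and H2-Aa (1.19 ± 0.56 TPM), and Fcgr1, S100a8 and Siglech had no count. The part of such cells in the Itgam and Itgax counts was not tested.

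Partner chains differed in level per exon length. Itgb2 exceeded Itgal in 4 of 4 libraries, by 1.13 ± 0.11 in log2(TPM + 1). That difference rests on the division by exon length (3052 bases for Itgb2 and 6569 for Itgal): in log2(CPM + 1), from counts scaled to 1000000 per library without length, it was 0.031 ± 0.113, and Itgal had more counts than Itgb2 in replicates 2 and 3. Set against the sum of its alpha partners Itgal, Itgam, Itgax and Itgad, Itgb2 had a ratio of 2.23, 2.09, 2.03 and 2.42, and Itgal supplied 99.4% of that sum. Itgb7 exceeded the sum of Itga4 and Itgae by 10.1, 9.87, 7.36 and 9.53 times, with the lowest ratio in replicate 3, where Itga4 was highest, and Itga4 supplied 99.5% of the sum. Without length the gap was narrower, with a mean of 302 CPM for Itgb7 and 170 CPM for Itga4, whose exons are 2743 and 13978 bases long. Itgb3 stood at 4.43 ± 0.80 times the sum of Itgav and Itga2b. Itgb1 went the other way. Its level was 0.273, 0.233, 0.200 and 0.327 of the sum of 7 alpha chains that pair with it, of which Itga6 supplied 60.5%. Itga4 and Itgav count in 2 of these sums, since they pair with more than 1 beta chain, and Itga6 also pairs with the beta 4 chain, whose gene Itgb4 had 3 counts.

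**Figure D2:**
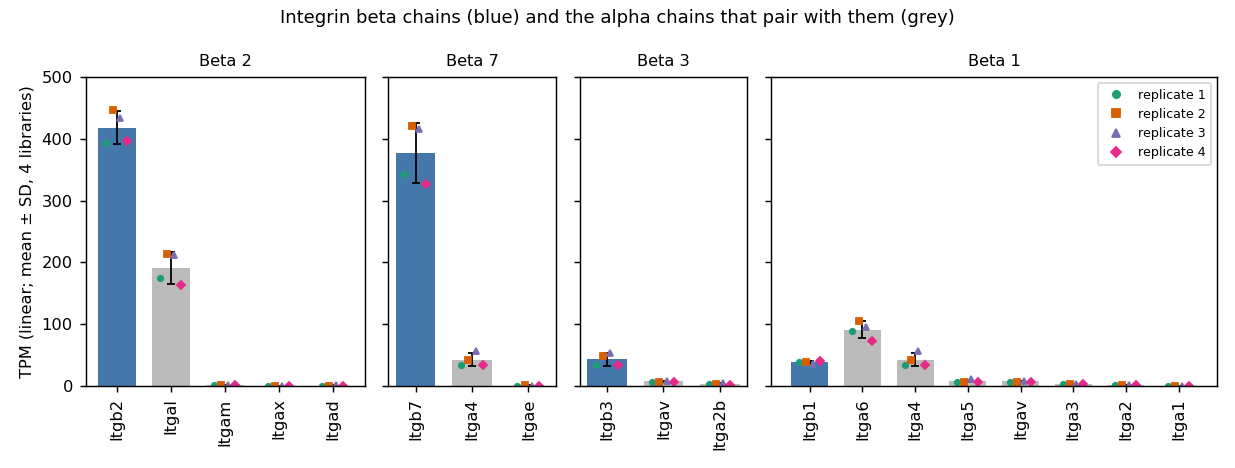
TPM (linear axis) of 4 integrin beta chains (blue) and of the alpha chains that pair with each (grey), as mean ± SD of 4 Th17 libraries with each library as a symbol; Itga4 and Itgav are drawn in 2 panels. Itgb2 and Itgb7 stand above all their alpha partners, Itgb7 with a mean of 377 TPM against 41.7 TPM for Itga4, whereas Itgb1 at 37.7 TPM stands below Itga6 at 90.4 TPM.

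Windows of Itga4 and Itgb7 are shown because these partner chains form alpha 4 beta 7 and differed in level. Both windows start from the same position as the counted gene models, at chr2:79255176-79255475 on the plus strand for Itga4 and at chr15:102231886-102232185 on the minus strand for Itgb7 (GRCm38.p6). Capitals in the Itga4 window mark a GC box 114 bases before the start and the RUNX core word TGTGGT, here as its reverse complement, 60 bases before it; the Itgb7 window held none of the 7 words searched.
Itga4: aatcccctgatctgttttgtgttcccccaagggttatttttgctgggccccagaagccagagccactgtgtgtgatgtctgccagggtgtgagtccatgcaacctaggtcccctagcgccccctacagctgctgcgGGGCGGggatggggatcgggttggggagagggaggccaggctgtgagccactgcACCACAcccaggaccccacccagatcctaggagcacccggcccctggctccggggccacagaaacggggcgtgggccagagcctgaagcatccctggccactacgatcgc
Itgb7: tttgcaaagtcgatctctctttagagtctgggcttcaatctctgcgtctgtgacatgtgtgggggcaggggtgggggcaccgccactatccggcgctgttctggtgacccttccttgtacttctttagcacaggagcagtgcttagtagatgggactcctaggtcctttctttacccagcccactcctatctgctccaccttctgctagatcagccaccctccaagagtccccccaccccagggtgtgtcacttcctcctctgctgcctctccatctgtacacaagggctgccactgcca
The GC box occurred in 12 of the 30 genes with a window and in 35.7% of all 32851 windows, and the RUNX core in 9 of 30 and in 16.8% of all windows. TATAAA was found in 3 of 30 (13.6% of all windows), the AP-1 word TGACTCA in 3 of 30 (5.2%), the ETS word CCGGAAG in 1 of 30 (8.86%) and the NR4A word AAAGGTCA in 0 of 30 (1.51%). An absent word says only that these letters are not in the window.

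Of the 16 chemokine receptors, Ccr7, Ccr8, Cxcr4 and Cxcr5 held levels above 10 TPM and the other 12 had means of 2.27 TPM or less. Ccr7, the lymph node homing receptor, was at 353, 411, 382 and 366 TPM (mean 378 ± 24.9 TPM). Ccr8, a receptor for CCL1 found on Th2 and regulatory T cells, was at 260, 216, 199 and 321 TPM (mean 249 ± 54.6 TPM), highest in replicate 4 and lowest in replicate 3. Foxp3, the factor that defines regulatory T cells, averaged 1.77 ± 0.29 TPM, with 2.11 TPM in replicate 2 as its highest value. The other regulatory T cell marker, Ikzf2, was at 0.999, 0.739, 1.01 and 1.18 TPM, highest in replicate 4. The part of regulatory T cells in the Ccr8 counts was not tested. Cxcr4, the CXCL12 receptor, was at 114, 129, 130 and 102 TPM. Cxcr5, the follicle homing receptor, was at 64.7, 66.8, 56.8 and 68.5 TPM. The lowest library was replicate 3 for Ccr8 and Cxcr5 and replicate 4 for Cxcr4; for Ccr7 it was replicate 1 in TPM and replicate 3 after TMM scaling.

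The receptors often used to mark Th17 or Th1 cells were low. Ccr6 averaged 0.207 ± 0.177 TPM from 5, 2, 1 and 7 counts. Ccr4, the receptor for CCL17 and CCL22 on Th2 and regulatory T cells, averaged 1.70 ± 0.40 TPM, and Cxcr3, the receptor for interferon-induced chemokines, was at 1.59, 1.70, 0.839 and 2.62 TPM. Ccr7 was above Ccr6 in 4 of 4 libraries by 8.30 ± 0.28 in log2(TPM + 1), Ccr8 above Ccr4 in 4 of 4 by 6.52 ± 0.39, and Cxcr5 above Cxcr3 in 4 of 4 by 4.64 ± 0.29. Ackr3, which scavenges CXCL12, had no count, and Cxcr4 was at least 881-fold above the limit of 3 counts for Ackr3 in each library. Ccr2, the receptor for CCL2 on monocytes and some effector T cells, averaged 2.27 ± 0.27 TPM, Cxcr6, the CXCL16 receptor, 1.73 ± 0.52 TPM, and Cx3cr1, the fractalkine receptor, 1.12 ± 0.27 TPM. The span of Cx3cr1 holds the same-strand gene Csrnp1, which had 266697 counts where Cx3cr1 had 188, and its part in the Cx3cr1 counts was not tested.

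Ccr9, the small intestine homing receptor, was at 0.352, 0.630, 1.08 and 0.971 TPM from 38, 79, 84 and 77 counts. Its gene model is 10260 exon bases long and 21.7% of its 31-base words are shared, so its level per length rests on a long and partly shared model. Cxcr2 and Ccr3, receptors of neutrophils and eosinophils, had 7 and 3 counts in all (12.1% of the words of Cxcr2 are shared), and 4 of 5 mast cell, basophil and eosinophil markers had none. Ccr1, a receptor of myeloid cells, and Ccr10, a skin homing receptor, had no count in any library, which allows at most 0.140 and 0.229 TPM in the library with the highest limit. On chromosome 9, the neighbours Ccr9, Cxcr6, Ccr1, Ccr3 and Ccr2 (mm10, 123678439 to 124113557) were all at a mean of 2.27 TPM or less. Ccr8, from 120092114 to 120094906 on the same chromosome, was not.

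Of the 5 receptors that place T cells by lipid signals, S1pr1, Gpr183 and P2ry10 averaged over 100 TPM. S1pr1, the sphingosine phosphate receptor that T cells need to leave lymph nodes, was at 293, 382, 352 and 311 TPM. Gpr183 (EBI2), the oxysterol receptor that guides cells to follicle borders, was at 314, 332, 295 and 272 TPM. P2ry10, a receptor for lysophospholipids on lymphocytes, was at 276, 313, 273 and 253 TPM. Replicate 2 was the highest library for S1pr1, Gpr183 and P2ry10, and the ranges of Gpr183 and P2ry10 overlapped. S1pr4, a lymphocyte sphingosine phosphate receptor, was at 25.3, 31.7, 33.2 and 30.0 TPM, and S1pr1 exceeded it in 4 of 4 libraries by 3.43 ± 0.10 in log2(TPM + 1). Ptgdr2 (CRTH2), the prostaglandin D2 receptor of Th2 cells, had no count, which allows at most 0.150 TPM in the library with the highest limit. Of its 31-base words, 38.3% also occur in another gene on either strand. Ptgdr2 overlaps Ccdc86 on the opposite strand, from which stranded counting can separate fragments. Whether any Ptgdr2 fragments were lost to shared words was not tested. P2ry10 and Cxcr3 lie on chromosome X. Between the libraries that differed in Xist, P2ry10 was at 276 and 313 TPM in replicates 1 and 2 and at 273 and 253 TPM in replicates 3 and 4, while the values of Cxcr3 overlapped; no test was made, since that division was read from the data.

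The order of levels was clear over wide steps and less so between neighbours, whose ranges mostly overlapped. Among the 19 genes of 10 TPM or more, the higher of 2 neighbours in the order of means was higher in all 4 libraries in 10 of 18 neighbouring pairs. The ranges of the libraries were separate in 4 of the 18: Icam1 above Cxcr4, Itga6 above Cxcr5, Itgb1 above S1pr4 and S1pr4 above Cd44. Thus Ccr7 and Itgb7 did not differ beyond their spread, each being higher in 2 of 4 libraries, and the same held for Itgb3 and Itga4 and for Itga4 and Itgb1. Over the 35 neighbouring pairs of the 36 genes with a count, 16 kept their order in all libraries and 7 had separate ranges.

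Variation between libraries was tested with a negative binomial fit over all genes in edgeR, which asks whether a gene varies more than the trend of genes at its level. Of the 41 genes, 30 passed the filter on low counts and 11 did not. At an adjusted p under 0.05 (Benjamini-Hochberg over 11567 genes), 0 of these 30 varied beyond the trend, against 0.813% of all genes tested, and DESeq2's size factors and trend also gave 0. At an unadjusted p under 0.05 there were 3, against 5.98% of all genes, and 4 with DESeq2's trend. In edgeR's fit over all genes they were Ccr8 (adjusted p = 0.170), Ccr9 (adjusted p = 0.582) and Itgb3 (adjusted p = 0.756). Ccr8 differed 1.62-fold between its highest and lowest library, Itgb3 1.57-fold and Ccr9 3.07-fold. Beside Ccr8, the Th17 cytokine gene Il17f was also highest in replicate 4, at 20.8 TPM against 7.04 to 11.7 TPM in the other libraries. Il17f varied beyond the trend (edgeR adjusted p = 0.0171), and its link to Ccr8 was not tested. The other Th17 markers named above were mixed in replicate 4. Il17a and, only just, Il21 were highest there, Irf4 and Rora were lowest there, and Batf and Stat3 were neither.

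The CV between libraries had a median of 13.1% over the 30 genes (range 4.99% to 44.5%), against 13.4% over all genes tested. For the 19 genes of 10 TPM or more it was 11.4%, against 10.6%. On the TPM scale Itgb2, Ccr7, Itgb1 and Icam2 were the steadiest of these, with CVs of 6.43%, 6.60%, 5.67% and 4.99%. After TMM scaling the highest library exceeded the lowest 1.17-fold for Itgb2, 1.21-fold for Ccr7 and 1.16-fold for Icam2 but 1.31-fold for Itgb1, more than the 1.17-fold of Icam1. Itga4 (25.4%), Itgb3 (23.3%) and Ccr8 (22.0%) had the highest CVs in TPM; after TMM scaling the widest ratio was that of Ccr8 (1.84-fold), followed by Selplg (1.55-fold) and Itga4 (1.54-fold). Counting error alone would give a CV of 1.35% for Itga4 and 1.91% for Ccr8; for Itga2, whose CV was 44.5% from 106 counts, it would give 19.4%.

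**Figure D3:**
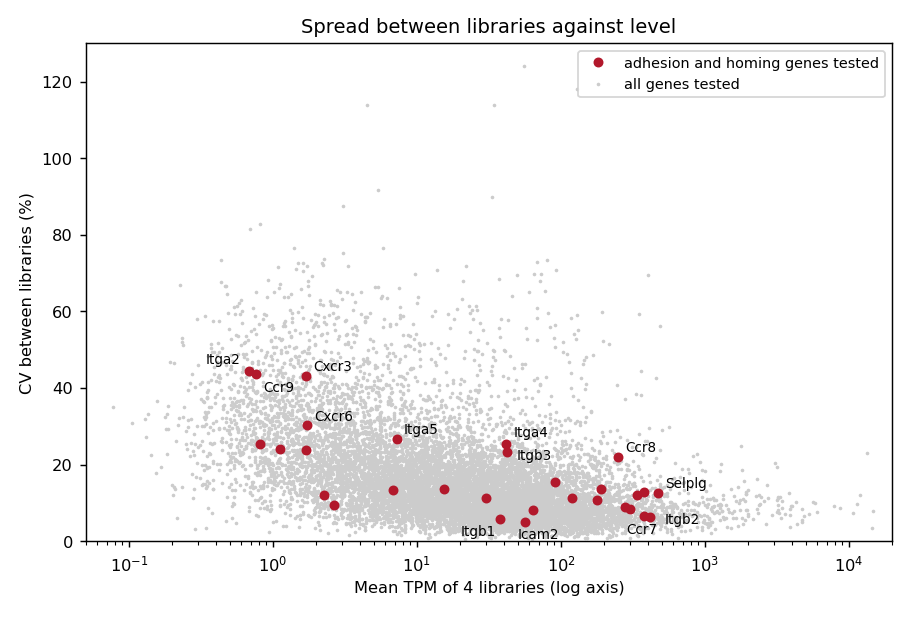
CV of TPM between the 4 libraries (percent) against mean TPM (log axis) for the 30 adhesion and homing genes tested (red) and all 11567 genes tested (grey). The red points lie within the grey cloud, with Ccr8, Itga4 and Itgb3 above 20% at levels over 40 TPM.

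The well-expressed genes shared a lean toward replicate 2, a pattern picked out after the values were seen. Of the 19 genes of 10 TPM or more, 17 lay above their own mean of 4 libraries in replicate 2 on the TPM scale, against 41.2% of all genes at that level. After edgeR's TMM scaling of counts per 1000000 (CPM), an alternative chosen after seeing the data, it was 18 of 19, against 52.1%; Ccr8 was the exception under TMM scaling. The size was small, with a median log2 deviation of 0.107 on the TPM scale and 0.158 after TMM scaling. In replicate 1, 4 of the 19 lay above their mean under both scalings, against 50.6% of all genes at that level in TPM and 52.6% after TMM scaling. In replicate 4 it was 5 of 19 in TPM, against 35.1%, and 7 of 19 after TMM scaling, against 52.7%. As each mean is over all 4 libraries, a high replicate 2 by itself lowers the deviations of the others. TPM itself shifted the median of all tested genes in replicate 3 by 0.108 on the log2 scale, and TMM scaling by -0.0103, so directions in replicate 3 depend on the scaling: 13 of the 19 were above their mean in TPM, against 66.0% of all genes at that level, and 8 after TMM scaling, against 41.3%, shares near those of all genes. Replicate 2 was also the most deeply sequenced library, and the part of depth in this lean was not tested.

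**Figure D4:**
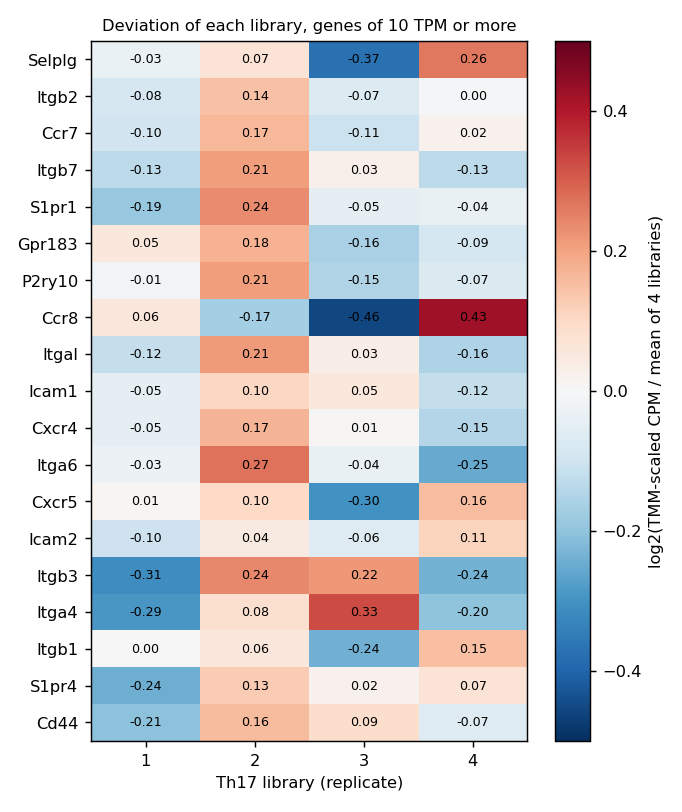
Log2 of TMM-scaled CPM over the mean of 4 libraries for the 19 genes of 10 TPM or more (rows, by mean TPM) in each Th17 library (columns); red is above and blue below the gene's own mean. Replicate 2 is above the mean for 18 of 19 genes, and Ccr8 and Selplg show the widest contrast, low in replicate 3 and high in replicate 4.

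The machinery around these genes was read from 8 further lists with 101 genes, of which 69 averaged 1 TPM or more (background 45.2% of protein coding genes). Of the 73 that passed the filter in edgeR's fit, 0 varied beyond the trend (background 0.813%), and 1 had an unadjusted p under 0.05, the sulfotransferase gene Chst2. The 8 lists include genes known from earlier results of these libraries, and their counts describe them only.

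Integrin activation and adhesion adaptors had 18 of 20 genes at 1 TPM or more, led by Rap1b (1199 ± 90.2 TPM), the small GTPase that switches integrins on, Stk4 (285 ± 39.7 TPM), a kinase that acts with Rap1 effectors, and the adaptor Fyb (239 ± 26.5 TPM). The lowest were Skap2 (3.01 ± 0.34 TPM), Tln2 (2 counts) and Fermt2 (no count), while the leukocyte kindlin gene Fermt3 averaged 170 ± 20.0 TPM. All 15 genes of chemokine receptor signalling and its arrest reached 1 TPM, from Coro1a (1126 ± 99.0 TPM), Cdc42 (603 ± 33.6 TPM) and Grk6 (572 ± 52.3 TPM) down to Pik3cg (17.8 ± 2.80 TPM), Gng2 (10.6 ± 1.26 TPM) and Grk5 (5.71 ± 0.41 TPM). Tln2 and Fermt2 were the ones under 1 TPM in these lists, whose medians over the genes' mean levels were 71.4 and 252 TPM, against 19.8 TPM over the 11567 genes tested between libraries.

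Enzymes that build selectin ligands were uneven beside the high level of Selplg. Of 10 genes, with a median of 9.12 TPM, 7 reached 1 TPM, led by the galactosyltransferase B4galt1 (98.0 ± 14.5 TPM), the tyrosine sulfotransferase Tpst2 (78.3 ± 8.60 TPM) and B4galt5 (25.8 ± 0.88 TPM). The fucosyltransferases Fut4 and Fut7 had 10 and 5 counts and the branching enzyme Gcnt1 had 2. Fut7 and Gcnt1 make the sugars through which PSGL-1 binds selectins. In the sphingosine phosphate and egress list, with a median of 15.1 TPM, 7 of 11 genes reached 1 TPM. Cd69, an activation antigen that pulls S1PR1 off the surface, averaged 1243 ± 92.3 TPM, Klf2, which drives S1pr1 transcription, 356 ± 44.1 TPM, and Foxo1, which drives Klf2, 115 ± 6.18 TPM. The transporter gene Spns2 and the receptor gene S1pr3 had 2 counts each and S1pr5 had none.

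In the list of oxysterol, prostaglandin and lysophospholipid sensing, with a median of 1.16 TPM, 7 of 12 genes reached 1 TPM, led by the prostaglandin E2 receptor gene Ptger4 (87.5 ± 6.53 TPM) and by Gpr174 (23.9 ± 4.80 TPM) and P2ry10b (17.5 ± 2.02 TPM), both neighbours of P2ry10 on chromosome X. Ltb4r1 and Ptgdr had 2 counts each, and Cyp7b1, which makes the ligand of GPR183, had none. Counter-receptors and other adhesion genes reached 1 TPM in 7 of 12 cases with a median of 52.9 TPM, led by Cd2 (1572 ± 95.3 TPM), Cd6 (281 ± 24.6 TPM) and Cd96 (140 ± 7.04 TPM). Vcam1 and Madcam1, the endothelial ligands of alpha 4 integrins, had 7 counts and no count, and Alcam, a ligand of CD6, averaged 0.321 ± 0.084 TPM.

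Integrin chain genes and chain-binding genes outside the 41 reached 1 TPM in 5 of 12 cases (median 0.395 TPM), with Itgb1bp1, a regulator of beta 1 integrins, at 20.3 ± 2.76 TPM, Itga10 at 3.10 ± 0.91 TPM and Itga2b, the platelet alpha chain, at 2.80 ± 1.06 TPM; Itgb4 had 3 counts, and Itga11 and Itgb6 had none. Of 9 other chemokine and atypical receptor genes, with a median of 0.0184 TPM, 3 reached 1 TPM: Gpr18 (401 ± 47.0 TPM), a lipid-sensing receptor of lymphocytes, Cxcr1 (5.82 ± 1.49 TPM) and Ccrl2 (4.84 ± 1.39 TPM). Cxcr1 thus stood above its neighbour Cxcr2 (0.0622 ± 0.0322 TPM) on chromosome 1. Ackr1, Ackr4 and Cmklr1 had no count.

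**Figure D5:**
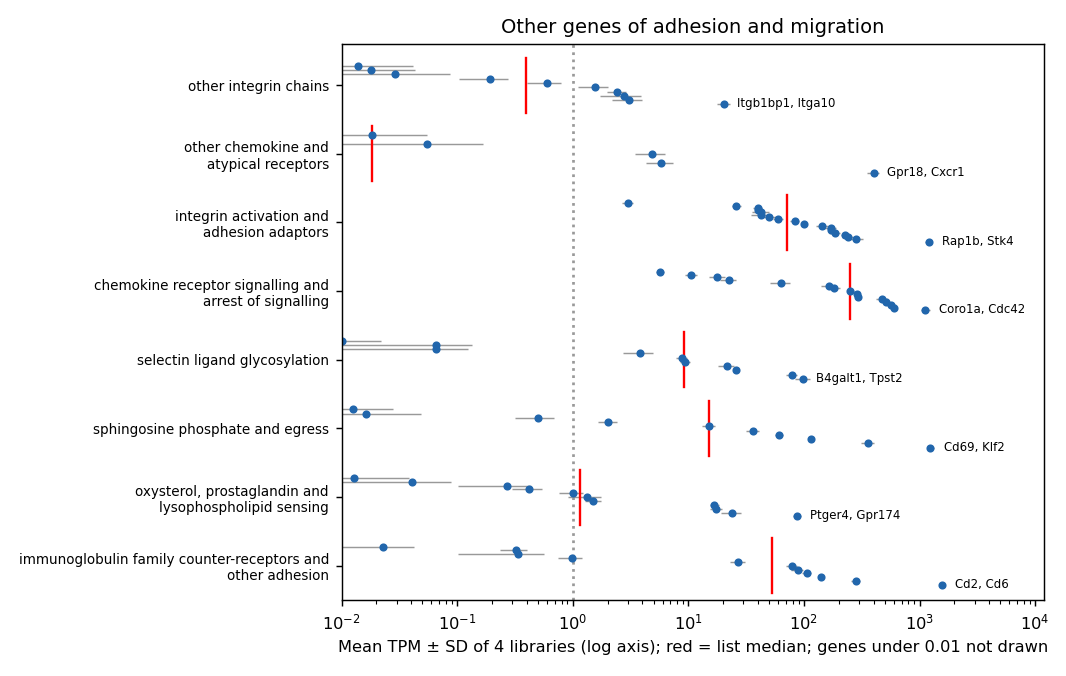
Mean TPM ± SD of 4 Th17 libraries (log axis) for the genes of 8 further lists of adhesion and migration (rows), with the median of each list in red and the 2 highest genes of each list named beside the top point; genes under 0.01 TPM are not drawn. The lists of integrin activation and chemokine receptor signalling lie almost wholly above 1 TPM, while the other integrin chains and other chemokine receptors lie mostly below it.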

How the data were processed

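Raw counts of fragments were deposited; per the file headers the authors counted them over GENCODE M13 exons with featureCounts 1.4.6-p4. The recorded options count read pairs with both ends mapped, with strandedness option 2, and no option for fragments of several genes or alignments was recorded. The alignment names carry STAR with its version not given in the sources used here; mm10 is the assembly of the labels. Of 50600 identifiers, 50376 were matched to a GENCODE M21 symbol and 224 were not. Biotypes are those of M21.

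TPM came from the counts and the deposited exon lengths over all genes. Totals were 36298276, 40652146, 26953724 and 25847970, where 3 counts are 0.0826, 0.0738, 0.111 and 0.116 CPM. No 2 libraries were identical within sampling noise. Variation used an intercept-only fit in edgeR 4.0.16 (R 4.3.3) with its filter and TMM. The deviance at the trended dispersion was set against a chi-square with 3 degrees of freedom and adjusted by Benjamini-Hochberg. With 1 group no coefficient test applied. The step was tested on simulated data. Pairs used log2(TPM + 1) with an exact two-sided sign-flip test. Shared sequence was the share of a gene's distinct 31-mers found, on either strand, in M21 transcripts of other genes, and promoter windows are RefSeq's (GRCm38.p6). Other tools were DESeq2 1.42.0, scipy 1.17.1, pandas 2.3.3, numpy 2.4.6, matplotlib 3.10.9 and Python 3.11.15.

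The 41 genes, lists, pairs and motif words were chosen with earlier results of these data known. Named with values per library were the members of 10 TPM or more; of each further list, the 3 highest and 3 lowest means were named, and other names were chosen after their values were seen. Alternatives covered scaling, filters, thresholds, pseudocounts, exon length, the tool and leaving out each library. One marker gene of the Th17 list is not reported here.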

Additional observations from a re-analysis of the deposited data

Results flagged for a closer look

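In 3 cases 1 library lay far from the other 3, with a gap to the nearest library, as a share of the whole range, above Dixon's critical value for 4 samples. Itga5 was at 10.1 TPM in replicate 3 and at 6.13 to 6.61 TPM in the others (gap 0.879). Itgav was at 8.15 TPM in replicate 3 and at most 6.53 TPM in the others (gap 0.832). Itgb8 was at 0.117 TPM in replicate 4 and at 0.0148 to 0.0258 TPM in the others (gap 0.892), which rests on 10 of its 17 counts. In all 76 sets of values were examined, and chance flags about 1 in 20. Replicate 3 is also the library whose TPM values lay above the mean for all tested genes, by a median of 0.108 on the log2 scale.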

How the results depend on the processing

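Samples could not be paired between groups because there is 1 group. No gene of the 41 varied beyond the trend under the 9 alternatives run (RLE scaling, library totals, no expression filter, 10 counts in each library, DESeq2's trend and leaving out each library). The lowest adjusted p was 0.167 to 0.881, and 1 to 5 genes had an unadjusted p under 0.05. That of Ccr8 was 0.844 without replicate 3 and 1.00 without replicate 4. Over all genes, 94 varied, against 60, 39, 59 and 35 without replicates 1 to 4 and 85 to 96 otherwise. For the count of genes at 1 TPM 8 alternatives were run. It stayed at 27 without any single replicate and under TPM over protein coding genes only. It was 28 over unshared exon bases. With the cutoff itself changed, 30 genes reached 0.5 TPM and 23 reached 2 TPM. The mean difference of each of the 12 pairs kept its sign in the 80 alternatives run, but most of these could not have reversed it. Each pair had the same sign in all 4 libraries, which leaving out a library or changing the pseudocount cannot alter. The runs limited to genes of 1 TPM or more repeat the main values. Only the runs without division by length could have changed a sign. There the mean difference of Itgb2 over Itgal fell to 0.031 ± 0.113 in log2(CPM + 1) (exact permutation p = 0.75), with no order shared by all libraries. Of 207 alternative mean levels 5 moved beyond the SD, 4 of them under TPM over protein coding genes only (Itgb2 447, Ccr7 405, Icam2 59.9 and Itgb1 40.3 TPM), and Itgam to 2.60 TPM over unshared exon bases. Most of the 207 leave out 1 of the 4 libraries, which cannot shift a mean by more than the SD. A gene without a count could not move either, so the small number that moved says little about stability. In log2(CPM + 1) the difference of Itgal over Itga4 was 1.12, that of Icam2 over Icam1 -2.82, and those of the other 9 pairs 2.71 to 7.61. Genes under 1 TPM rest on at most 278 counts over the 4 libraries.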
